A study of Rattus norvegicus with 24 samples.

Results

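Normal development of the rat testis between late gestation and puberty was described from the 8 control arrays of a study on dibutyl phthalate (DBP), a plasticizer known to impair male reproductive development in rats. The members were chosen by their labels: all 4 arrays of testis taken at gestational day (GD) 20 from dams given corn oil, and all 4 arrays of testis taken at postnatal day (PND) 35 from pups given corn oil both before birth and at PND35, out of 24 arrays in the series. All animals were male Fisher 344 rats with no genetic modification. The oil was given to the dams by gavage once a day from GD12 to GD20, the pups received 1 further oil gavage at PND35, and their testes were taken 6 h later. No interval after the last gavage is recorded for the GD20 controls. Each GD20 array is labelled by its dam (2, 3, 4 and 5), and the dam 2 label also says that the sample was pooled. Each PND35 array is labelled by its pup (104, 110, 114 and 120). The testes were detunicated at both ages, so the outer capsule was removed before extraction. A further 8 arrays, GD20 testes of dams given 50 mg/kg DBP daily and PND35 testes of pups with that fetal exposure followed by corn oil, served as a separate set in which to look at the same age difference.

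The testis is built from tubules, in which Sertoli cells nurse the germ cells, and from the tissue between them, where Leydig cells make androgens. Before birth the germ cells are resting gonocytes. After birth they become spermatogonia, enter meiosis as spermatocytes and then remodel into haploid spermatids, whose histones are replaced by transition proteins and then protamines. Sertoli cells multiply in the fetus and the young animal and stop dividing around puberty, when the blood-testis barrier forms. Leydig cells come in a fetal and an adult population, which differ in the enzymes they carry.

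Several of the genes below carry in their promoters short strings known as binding sites of factors of germ cell, gonadal or dividing cells, and 5 of these promoters are printed to show what such a match looks like. Each is the run of 250 bases before the gene's start, on the gene's own strand, from RefSeq on the rat build GRCr8, with the matched string in capitals. They were chosen after the matches had been counted.

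Tnp1 (chr9:82044279-82044528, minus strand): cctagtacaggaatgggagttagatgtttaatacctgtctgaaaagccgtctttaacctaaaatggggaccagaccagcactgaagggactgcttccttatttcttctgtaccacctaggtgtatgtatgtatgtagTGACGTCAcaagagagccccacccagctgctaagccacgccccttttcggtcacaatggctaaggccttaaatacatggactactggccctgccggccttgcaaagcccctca

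Ldhc (chr1:106522745-106522994, plus strand): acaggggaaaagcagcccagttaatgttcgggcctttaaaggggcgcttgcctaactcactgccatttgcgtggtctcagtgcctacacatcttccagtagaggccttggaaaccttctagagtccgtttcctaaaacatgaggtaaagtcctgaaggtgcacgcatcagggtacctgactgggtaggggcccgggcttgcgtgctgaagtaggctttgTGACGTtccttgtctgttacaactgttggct

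Amh (chr7:9559868-9560117, minus strand): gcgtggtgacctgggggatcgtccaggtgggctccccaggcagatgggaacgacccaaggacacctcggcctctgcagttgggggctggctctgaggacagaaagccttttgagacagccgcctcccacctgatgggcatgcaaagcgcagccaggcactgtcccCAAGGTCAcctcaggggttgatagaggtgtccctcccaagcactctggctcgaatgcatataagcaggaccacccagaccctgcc

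Pola1 (chrX:62342356-62342605, minus strand): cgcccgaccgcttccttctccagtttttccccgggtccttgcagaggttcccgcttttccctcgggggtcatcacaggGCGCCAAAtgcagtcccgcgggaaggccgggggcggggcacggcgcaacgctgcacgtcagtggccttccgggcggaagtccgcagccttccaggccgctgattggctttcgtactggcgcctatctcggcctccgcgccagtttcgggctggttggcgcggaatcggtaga

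Tyms (chr9:120776084-120776333, minus strand): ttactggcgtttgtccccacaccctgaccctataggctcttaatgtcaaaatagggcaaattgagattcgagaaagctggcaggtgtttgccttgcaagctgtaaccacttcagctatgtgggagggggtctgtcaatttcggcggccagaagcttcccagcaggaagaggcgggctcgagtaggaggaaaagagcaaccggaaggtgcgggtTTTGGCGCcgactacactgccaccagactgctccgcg

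The capitals in Tnp1, which encodes transition protein 1, mark the cAMP response element TGACGTCA, whose first base lies 113 bases before the start. Those in Ldhc, the lactate dehydrogenase of spermatocytes and sperm, mark its shorter form TGACGT, 31 bases before the start. The element is the site of the CREM activator of spermatids. Amh, the Sertoli cell hormone that removes the female ducts in the fetus, has the steroidogenic factor 1 site CAAGGTCA 85 bases before its start. Pola1, a DNA polymerase subunit, and Tyms, thymidylate synthase, have the E2F string TTTGGCGC, which in Pola1 reads on the other strand as GCGCCAAA and begins 172 bases before the start, and in Tyms begins 37 bases before it.

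In all, 10 such strings were searched on both strands from 250 bases before to 50 bases after the starts of 27457 genes. TGACGTCA was found in 2.00% of all genes and in 2 of the 22 spermatid genes with a promoter entry, Crem and Tnp1. TGACGT, which lies within the longer form, was found in 8.68% of all genes, in 5 of the 22 spermatid genes (22.7%: Acr, Cabyr, Crem, Gapdhs and Tnp1), in 1 of 14 meiotic genes and in 2 of 17 sperm tail genes. The string was as frequent in lists of other kinds, 30.8% of G1 regulators, 28.6% of somatic isoenzymes and 36.4% of germ cell isoenzymes, and TGACGTCA was found in 14.3% of somatic isoenzymes. The core TGACG was found in 27.3% of spermatid genes and 23% of all genes. CAAGGTCA was found in 1.62% of all genes, in 2 of 21 genes of Sertoli cell differentiation (Amh and Fgf9) and in 0 of 12 steroidogenic genes of Leydig cells. TTTGGCGC was found in 0.554% of all genes and in 8 of 38 genes of replication and mitosis (21.1%: Cdt1, Ezh2, Gins1, Mcm5, Mcm6, Pola1, Stmn1 and Tyms). Of these 8, 3 were lower at PND35 and none was higher, and the printed Pola1 and Tyms are among those 3. In the whole list 12 of 44 measured genes were lower and 12 higher, and of all genes 14.6% and 30.8%. Whether the string goes with a fall was not tested. AACTGTC was found in 13.6% of spermatid genes and in 0 of 14 meiotic and 0 of 17 tail genes. CAACTG was found in 18.2%, 21.4% and 11.8% of spermatid, meiotic and tail genes, and GTTGCCA in 4.55%, 0% and 5.88%. AAGGTCA, which lies within CAAGGTCA, was found in 9.52% of Sertoli differentiation genes and 8.33% of steroidogenic genes. TTTCCCGC was found in 7.89% of replication genes. A match is a run of letters and not a measured binding site, and no binding was measured here.

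The values are deposited probe-set intensities of Affymetrix Rat230_2 arrays, 1 array per sample. All arrays had been scaled to nearly the same trimmed mean, 500.1 to 500.2, but their median intensity lay at 169 to 175 at GD20 and at 101 to 107 at PND35. Differences between ages are given as log2 fold changes of intensity plus 16, PND35 over GD20, after each array was centred on its median, with the standard error (SE) of the limma fit over 8 arrays. Intensities are quoted as deposited, with the standard deviation (SD) over 4 arrays, and are compared only within a gene. A gene was called when its adjusted p was under 0.05 and it differed at least 2-fold. At GD20 the extraction used Trizol followed by a micro clean-up kit. At PND35 pup 104 was extracted with Trizol and a clean-up, and the other 3 pups with a column kit after RNAlater. The RNA integrity number was 8.7 to 8.8 at GD20 and 8.2 to 8.6 at PND35 (difference -0.325, exact permutation test, two-sided, p = 0.0286, the smallest that 4 against 4 can give). The poly-A spike-in controls averaged 8.17 to 8.46 on the log2 scale at GD20 and 5.90 to 6.06 at PND35. Spike-in level and clean-up kit ran with age in these 8 arrays and cannot be told apart from it. Between arrays of a group the log2 differences of well-measured probe sets had an SD of 0.185 to 0.200 at GD20 and 0.270 to 0.322 at PND35, against 1.31 to 1.44 between the ages.

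Of 14217 genes, each represented by its brightest probe set, 4382 (30.8%) were called higher and 2073 (14.6%) lower at PND35, and 1862 (13.1%) and 687 (4.83%) differed at least 4-fold. The arrays of the ages did not overlap for 10124 genes, or 71.2%. The direction of moderate differences depended on how the arrays were scaled: as deposited, 2435 genes were higher and 3968 lower, after quantile normalization 2961 and 3004, and after centring on the 75th percentile 3149 and 2993. The share of higher genes among those called was thus 67.9% with median centring and 38.0%, 49.6% and 51.3% under the others. The median of the log2 differences over all probe sets was 0.34 with median centring and -0.31 as deposited, a shift of 0.65, with 0.00 and -0.01 under the remaining scalings. Median centring gave the highest median difference of the 4 scalings. All 2073 falls called under it also held under the others, and only rises were lost. Of the rises 2304 (16.2% of genes) held under all 4 scalings beside the 2073 falls, and at 4-fold 1101 (7.74% of genes) beside the 687 falls. In the other direction, the other scalings add falls. Over the 31042 probe sets tested, 24.5% were called higher and 14.6% lower at 2-fold and 8.57% and 4.35% at 4-fold, and under all 4 scalings 11.1% and 14.6%, and 4.88% and 4.35%. Counts below therefore also give the rises that hold under all 4 scalings and, where they differ, the falls as deposited. With median centring, each list count is to be read beside the 30.8% of all genes called higher and 14.6% lower. Rises under all 4 scalings are to be read beside 16.2% of all genes. Falls as deposited are to be read beside the 3968 of 14217 genes lower under that scaling, which is more than with median centring.

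**Figure D1:**
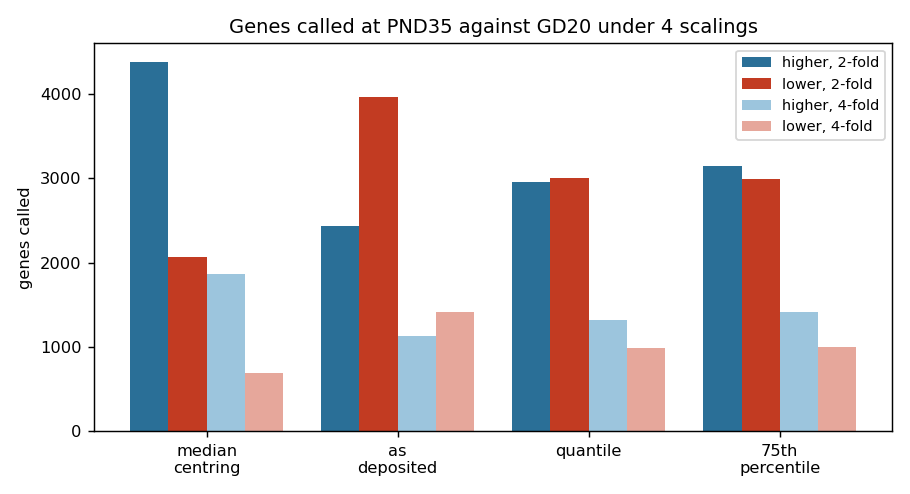
Bars give the number of genes called higher (blue) or lower (red) at PND35 against GD20, at least 2-fold (dark) or 4-fold (light), under each of 4 scalings of the 8 arrays. The split between rises and falls ranges from 4382 against 2073 with median centring to 2435 against 3968 as deposited.

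The largest median among the 23 gene lists was that of haploid germ cell transcripts, most of which were dim at GD20. All 25 measured genes of round and elongating spermatids rose, 24 of them at least 4-fold, and all 25 held under all 4 scalings. Their median log2 difference was 7.48, against 0.41 for all genes. The summed intensity of the list was 4018 to 4406 at GD20 and 185019 to 245904 at PND35, with pups 114 (206028) and 120 (185019) below pups 104 (245704) and 110 (245904). In whole testis, more cells of a type and more RNA per cell cannot be told apart. The same limit holds for the falls in the lists below, which are of transcripts in the whole sample and not per cell.

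Protamine 1 (Prm1), which packs sperm DNA, had intensities of 26.5, 59.7, 60.1 and 37.9 in the fetal testes of dams 2, 3, 4 and 5. It had 38155, 36207, 36277 and 30081 in pups 104, 110, 114 and 120. The log2 fold change was 9.84 ± 0.16 (SE, adjusted p = 6.94e-15). The mean intensities were 764-fold apart, and pup 120 had the lowest of the PND35 values. Tnp1, which replaces histones before the protamines, went from 98.6 ± 16.2 to 22022 ± 3525 (SD, n = 4 each) and Tnp2 from 7.86 ± 3.66 to 14232 ± 2564. Hils1, a spermatid histone, rose by 9.31 and the mitochondrial capsule protein Smcp by 9.85 on the log2 scale. Capza3, an actin-capping subunit of sperm, had 1.09 to 2.95 at GD20 and 6408 to 9213 at PND35. The members with the smallest rises were Cabyr (1.76), Fscn3 (2.35) and Tbpl1 (2.95), a TBP-like factor needed by spermatids. Crem itself, the activator of postmeiotic genes, was measured at 407 ± 26.2 at GD20 and rose by 4.03 ± 0.10 to 4414 ± 619.

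Genes of the sperm tail and its axoneme followed the same course. All 22 rose, 21 of them at least 4-fold, all held under all 4 scalings, and the median was 6.25. Odf1, an outer dense fibre protein, had 66.9, 64.8, 63.8 and 64.8 at GD20 and 23007, 21227, 19118 and 16954 at PND35 (log2 fold change 8.60 ± 0.09). Its 4 fetal values were nearly equal, and pup 120 was again the lowest at PND35. Akap4, an anchoring protein of the fibrous sheath, rose by 8.39 and the axonemal protein Spag16 by 8.48. The tektins Tekt1 to Tekt5 rose by 4.62 to 7.15. The smallest rises were those of the tubulin ligase Ttll1 (1.83) and the dynein heavy chain Dnah17 (2.06).

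Meiotic genes were higher at PND35 as well. Of 18 measured members 17 rose, 15 of them at least 4-fold and 16 under all 4 scalings, with a median of 4.03. The summed intensity was 6615 to 7208 at GD20 and 92507 to 106928 at PND35, so that the 4 pups differed less here than in spermatid genes. Sycp3, of the synaptonemal complex that pairs chromosomes, was already bright in the fetus (1629, 1379, 1410 and 1335) and reached 12885, 13898, 14994 and 14548, a rise of 3.93 ± 0.08. Sycp1, of the same complex, had 0.359 to 3.79 at GD20 and 170 to 193 at PND35. Spo11, which cuts DNA to start recombination, rose by 4.66. The late spermatocyte genes Adam2 and Hspa2 rose by 6.66 and 6.81. Ldhc had 164, 172, 151 and 150 against 32706, 29310, 28126 and 23518, a rise of 7.99 ± 0.09. Stag3, a meiotic cohesin subunit, was higher by 1.81 with median centring but by 0.93 under another scaling, and Msh5, a crossover protein, was not called (0.73, adjusted p = 0.0063).

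Genes of gonocytes and spermatogonia did not move as a block. Of 17 measured members 6 were higher and 2 lower (5 and 2 under all 4 scalings), and 9 were not called, and as deposited 6 were lower. With median centring these shares lie near those of all genes (30.8% and 14.6%), and as deposited 3968 of 14217 genes were lower. The median was 0.49. The histone demethylase Kdm1b fell by 3.68 ± 0.09, from 5403, 5869, 5387 and 5174 to 248, 212, 271 and 299, and the stem cell factor Sall4 fell by 2.27. Genes that rose were Id4 (4.20), a mark of spermatogonial stem cells, Tdrd1 (3.40) and Piwil2 (2.25) of the piRNA pathway, Gfra1 (2.79), the GDNF receptor of stem spermatogonia, and Tex14 (2.10), which keeps the bridges between germ cells open. Gfra1 had 452 and 370 in pups 104 and 110 and 196 and 218 in pups 114 and 120. Kit, the receptor of differentiating spermatogonia, was not called (-0.09 ± 0.17, adjusted p = 0.672).

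**Figure D2:**
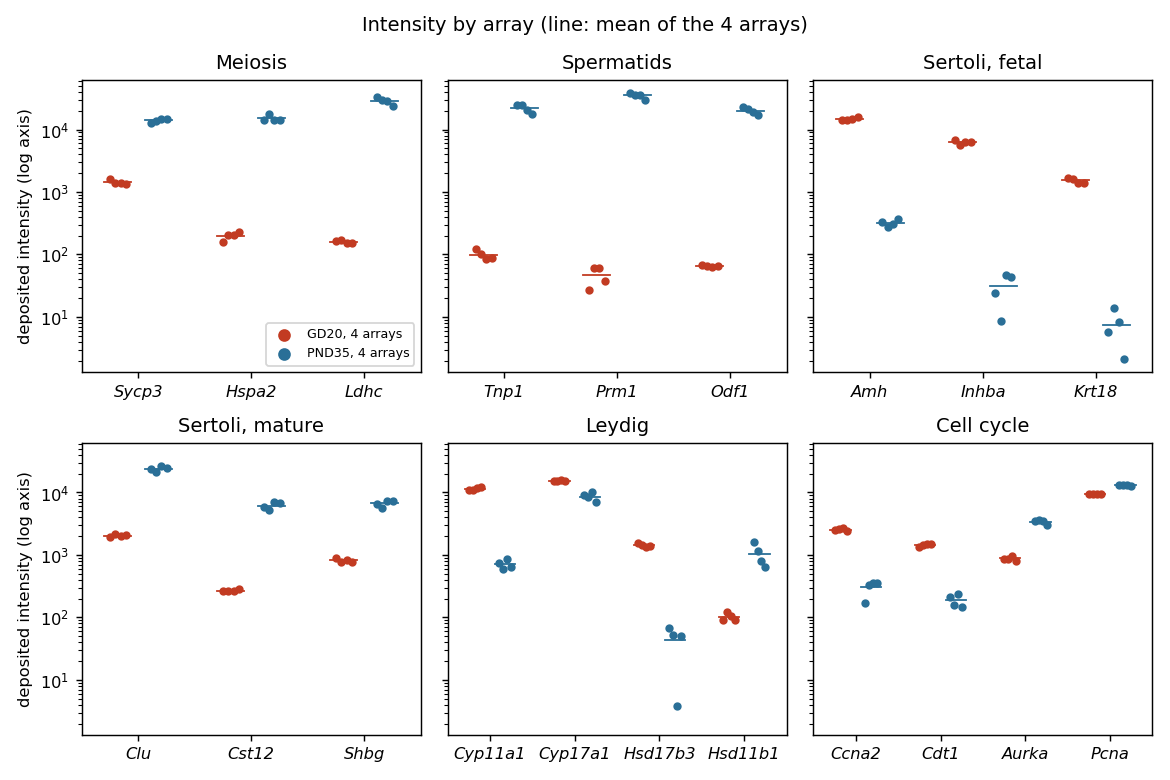
Each dot is the deposited intensity (log axis) of a gene on 1 array, red for the 4 GD20 and blue for the 4 PND35 control testes, and each line is the mean of 4. Meiotic and spermatid genes lie higher at PND35 and Amh, Inhba and Krt18 lie lower, with no overlap, whereas Cyp17a1 and Pcna differ by less.

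Some metabolic enzymes have a germ cell form beside a somatic one, and both forms were listed. Of 13 germ cell forms 12 were higher (11 under all 4 scalings), with a median of 4.09. Of 15 somatic partners 3 were higher and 3 lower (1 and 3 under all 4 scalings, 6 lower as deposited), with a median of -0.29. In glycolysis, the sperm enzyme Gapdhs rose by 7.25, Pgam2 by 7.69 and the glucose transporter Slc2a3 by 6.19. For pyruvate dehydrogenase, the testis-specific subunit Pdha2 went from 171 ± 27.9 to 3850 ± 247, a rise of 5.03, and the X-linked Pdha1 from 2475 ± 136 to 504 ± 54.8, a fall of 1.61. The X-linked Pgk1 fell by 1.43, a call lost when its probe sets were averaged. The mitochondrial channel Vdac1 fell by 1.08 and its relative Vdac3 rose by 2.07. Not every somatic partner was lower: the TATA-binding protein Tbp rose by 3.01, and Ldha (1.50) and Hk1 (1.85) were higher with median centring but not under all 4 scalings. Slc25a31, the germ cell ADP/ATP carrier, was likewise higher by 1.28 only under some scalings, and Slc2a5 was not called (-0.08).

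Sertoli cell genes were put on 2 lists, of differentiation and of mature cells. Of 25 genes of Sertoli cell differentiation, 11 fell and 4 were higher (11 and 2 under all 4 scalings, 14 lower as deposited), with a median of -0.69. This list is not restricted to the fetal stage and holds genes kept in the adult, such as Wt1. Of 25 genes of mature Sertoli cells, 12 were higher and 2 fell (11 and 2 under all 4 scalings, 3 lower as deposited), with a median of 0.78. The summed intensity of the first list was 87592 to 91539 at GD20 and 24962 to 31942 at PND35, and that of the second 44897 to 47681 and 85059 to 104079.

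Amh had 14408, 14432, 14761 and 15732 at GD20 and 325, 272, 310 and 366 at PND35. It fell by 4.82 ± 0.08 on the log2 scale (adjusted p = 6.63e-15), and the groups lay far apart with little spread within each. The activin subunit Inhba fell further, by 6.50 ± 0.22, from 6213 ± 439 to 30.7 ± 17.8, where it lay near the floor of the arrays. Which cells carried Inhba was not measured in these whole-testis samples, and its place on a Sertoli list does not settle it. The partner subunit Inhbb fell by 1.14, from 4995 ± 150 to 1434 ± 196, and the inhibin subunit Inha was not called (-0.44 ± 0.09, and -1.09 as deposited). The keratins Krt18 and Krt8 of immature Sertoli cells fell by 5.40 and 4.71. The cyclin Ccnd2, through which FSH drives Sertoli cell division, fell by 2.06, and the gonadal factor Gata4 by 1.31. Wt1, which Sertoli cells keep through life, was not called (-0.20 ± 0.09, adjusted p = 0.0521). Amhr2, the receptor of Amh, went the other way from its ligand and rose by 2.73 ± 0.07, from 460 ± 14.2 to 1998 ± 140. The prostaglandin synthase Ptgds rose by 1.68. Dmrt1 (1.32) and Mro (1.21) were higher with median centring but not under all 4 scalings.

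Among genes of the mature Sertoli cell the secreted proteins stood out. Clusterin (Clu) had 1937, 2163, 1997 and 2055 at GD20 and 23772, 21517, 26382 and 24432 at PND35, a rise of 4.20 ± 0.07. The cystatins Cst9l and Cst12 rose by 5.60 and 5.08, and Cst12 was at 263 to 280 in the fetal testes and at 5218 to 6930 in the pups. The water channel Aqp8 rose by 6.11 and Shbg, the androgen-binding protein, by 3.65. Cldn11, the claudin of the blood-testis barrier, rose by 2.42 from an already bright 3092 ± 239, whereas the barrier genes Ocln (-0.11) and Tjp1 (0.38) were not called. Espn, an actin bundler of the Sertoli cell junctions, rose by 2.41 and Gata1 by 1.96. The homeobox gene Rhox5 fell by 1.36, a call lost with the RNA integrity number in the model, and Sparc fell by 1.11, a call lost when its probe sets were averaged.

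Leydig cell genes that passed the test were more often lower than higher at PND35. In whole testis a smaller share of such cells and less RNA per cell cannot be told apart. Of 17 steroidogenic genes 6 fell, 2 were higher (6 and 0 under all 4 scalings) and 9 were not called, with a median of -0.81, and as deposited 11 were lower. The summed intensity was 78900 to 82178 at GD20 and 24176 to 30818 at PND35. Of 21 genes that mark fetal, progenitor or adult Leydig cells, 11 fell and 3 were higher (11 and 2 under all 4 scalings), with a median of -1.03, and as deposited 14 were lower.

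Along the pathway, the cholesterol receptor Scarb1 fell by 1.92 and Star, which carries cholesterol into mitochondria, by 3.14 ± 0.19. Cyp11a1, which cuts the side chain of cholesterol, fell by 3.34 ± 0.09, from 10888, 11136, 11867 and 12090 to 740, 606, 865 and 630. Hsd3b1, which acts next, fell by 1.16, a call lost with the RNA integrity number in the model. Cyp17a1, which makes the androgen precursor, was not called: 15317 ± 387 at GD20 and 8606 ± 1217 at PND35, a difference of -0.19 ± 0.08 with median centring (adjusted p = 0.0649) that reached -1.13 under another scaling. Hsd17b3, the last step to testosterone in the adult, had 1525, 1456, 1342 and 1386 at GD20 and 66.9, 52.8, 3.86 and 49.5 at PND35. It fell by 4.13 ± 0.34, and pup 114 stood below the others. The luteinizing hormone receptor Lhcgr fell by 1.67. Steps of 1 pathway therefore differed widely in size, from Hsd17b3 and Cyp11a1 to Cyp17a1.

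Insl3, the Leydig cell hormone of testis descent, was spread over the pups: 5650, 4175, 2489 and 2317 at PND35, against 6862 to 7531 at GD20. The difference of -0.43 ± 0.21 was not called (adjusted p = 0.088, -1.46 under the scaling that lowers it most). Of the stage markers, Gli1, the target of hedgehog signals from Sertoli cells, fell by 3.04, Tcf21 by 3.00, and so did the growth factor Pdgfa (-2.85) and its receptor Pdgfra (-2.55). Nr2f2, of stromal and progenitor cells, fell by 1.93. The glucocorticoid enzymes moved apart: Hsd11b1 rose by 3.77 ± 0.22, from 101 ± 14.7 to 1585, 1173, 801 and 650, and Hsd11b2 fell by 2.33. Akr1c14, an androgen-metabolizing reductase of immature Leydig cells, rose by 2.30. Hsd11b1 and Insl3 had in common that pups 104 and 110 lay above pups 114 and 120. Hsd3b5 (1.17) was higher with median centring only, and Akr1b7 (1.53) under all scalings but that of the deposited values, both at intensities of at most 162.

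**Figure D3:**
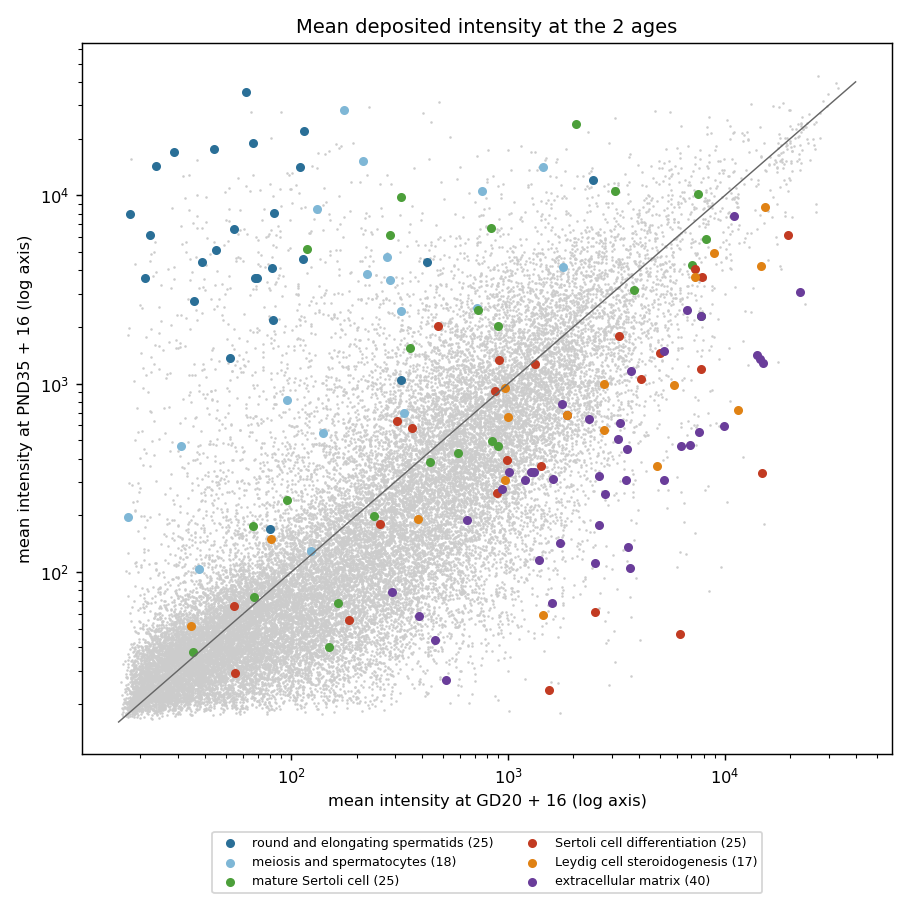
Each point is a probe set, placed by its mean intensity plus 16 at GD20 (x axis) and PND35 (y axis), both log axes, with the line of equal intensity. Grey points are all probe sets. Spermatid genes (dark blue) crowd the upper left, where Prm1 goes from 46.0 to 35180, and extracellular matrix (purple) lies below the line.

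Genes of DNA replication and mitosis did not move together. Of 44 measured members 12 were higher and 12 lower (3 and 12 under all 4 scalings, 21 lower as deposited), 20 were not called, and the median was -0.17. With median centring 30.8% of all genes were called higher and 14.6% lower, and as deposited 3968 of 14217 were lower. The summed intensity was 95672 to 98345 at GD20 and 92495 to 100640 at PND35, which overlap.

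The 12 falls included genes of S phase beside the mitotic genes Cenpa, Cenpe and Kif23. Ccna2, the somatic S phase cyclin, fell by 2.40 ± 0.19, from 2505, 2598, 2651 and 2374 to 170, 327, 361 and 352, with pup 104 lowest. The licensing genes Cdt1, Mcm4 and Mcm2 fell by 2.20, 2.24 and 1.77. Tk1 and Tyms, which supply thymidine nucleotides, fell by 2.04 and 1.91, and Pola1 by 1.94. The rises that held under all 4 scalings were mitotic: Pttg1, the securin that holds sister chromatids, rose by 2.67, the kinase Aurka by 2.59 ± 0.08 (856, 874, 973 and 810 to 3538, 3678, 3444 and 2981), and Cdc20, the activator of the anaphase complex, by 2.20, a call lost when its probe sets were averaged. The mitotic genes Bub1 (1.82), Ttk (1.76), Ccnb2 (1.65) and Ccnb1 (1.61) were higher with median centring but not under all 4 scalings, and a second probe set of Ccnb1 was called lower. Pcna, the replication clamp, was higher by 1.14 with median centring and by 0.08 under another scaling. The proliferation marks Mki67 (-0.72), Top2a (-0.04) and Cdk1 (0.05) were not called, and Mki67 stood at -1.37 as deposited.

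Of 20 G1 regulators 5 were higher and 4 fell (4 and 4 under all 4 scalings, 8 lower as deposited), with a median of 0.07. With median centring the shares lay near those of all genes (30.8% and 14.6%), and as deposited 3968 of 14217 genes were lower. The inhibitor Cdkn1c, an imprinted gene, fell by 3.60 ± 0.13, from 5980 ± 279 to 305 ± 71.6, and the cyclin Ccnd3 fell by 2.12. Cdkn2b rose by 2.92, the p53 target Cdkn1a by 2.10 and Cdkn2c by 1.90. Cyclin E2 (Ccne2), a cyclin of meiosis as well as of S phase, rose by 2.04, a call lost when its probe sets were averaged. Cdkn1b, the inhibitor that marks the end of Sertoli cell division, was not called (-0.17 ± 0.07).

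Fetal growth genes under imprinting fell as a group. Of 19 measured, 13 fell (16 as deposited), none was called higher, and the median was -2.21. Mest had 7958, 8827, 8176 and 8713 at GD20 and 56.8, 19.3, 73.7 and 102 at PND35, a fall of 6.21 ± 0.26. The non-coding RNA H19 fell by 5.20, Plagl1 by 4.85, Dlk1 by 3.44 and Igf2 by 2.79, the last call lost when its probe sets were averaged. The falls held paternally expressed genes such as Mest, Igf2 and Dlk1 as well as maternally expressed ones such as H19, Meg3 and Cdkn1c. Sgce (-0.91), Snrpn (0.40) and Peg10 (0.81) were among the 6 that were not called.

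Of 11 genes of DNA methylation 6 fell and 2 were higher (6 and 1 under all 4 scalings, 9 lower as deposited). The demethylating enzymes Tet1 and Tet3 fell by 2.38 and 2.00, the de novo enzyme Dnmt3a by 1.81 and the maintenance enzyme Dnmt1 by 1.53. Mbd3, a methyl-binding protein, rose by 2.02. In the retinoid list 5 genes were higher and 3 fell of 19 (2 and 3 under all 4 scalings, 8 lower as deposited). With median centring the retinoid shares lie near those of all genes (30.8% and 14.6%), and as deposited 3968 of 14217 genes were lower. Crabp2, a retinoic acid carrier, fell by 5.37, from 3661 ± 159 to 41.8 ± 13.4, and Rdh10, which makes retinal, rose by 3.17. Cyp26a1, which degrades retinoic acid, rose by 2.19 at dim intensities of at most 121, and Cyp26b1, which keeps retinoic acid from fetal germ cells, was not called (0.77 ± 0.10).

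Genes of the extracellular matrix, which supports the tubules, fell as a group. Of 40 extracellular matrix genes 36 fell (39 as deposited), 24 of them at least 4-fold, none was called higher, and the median was -2.35. Their summed intensity was 168248 to 193552 at GD20 and 28454 to 33363 at PND35. Vcan, a proteoglycan of young matrix, fell by 4.46, fibronectin (Fn1) by 4.10, Col14a1 by 3.90 and Col1a1 by 2.92, from 14953 ± 1528 to 1265 ± 305. The basement membrane chains Col4a1 and Col4a2 fell by 3.14 and 2.78. Mgp (0.14) and Col18a1 (-0.53) were among the 4 that were not called.

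Of 14 genes of peritubular myoid cells and smooth muscle 7 fell and 1 was higher (7 and 0 under all 4 scalings). Flna fell by 2.83, Des by 1.88 and Tagln by 1.80, and Acta2, the smooth muscle actin, was not called (-0.79 ± 0.09) but stood at -1.44 as deposited, and so did Actg2 (-0.73 and -1.38) and Cnn1 (-0.72 and -1.38). As deposited 12 of the 14 were lower. Of 11 endothelial genes 8 fell and 1 was higher (8 and 0 under all 4 scalings, 10 lower as deposited), with Plvap at -3.04, Kdr at -2.63 and Emcn at -2.26. The Kdr call was lost when its probe sets were averaged. The single endothelial rise, that of Flt1 (1.01), was lost under each of the other scalings and when its probe sets were averaged. Among the other probe sets of the endothelial genes, 1 was called opposite to its gene and 0 the same way.

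**Figure D4:**
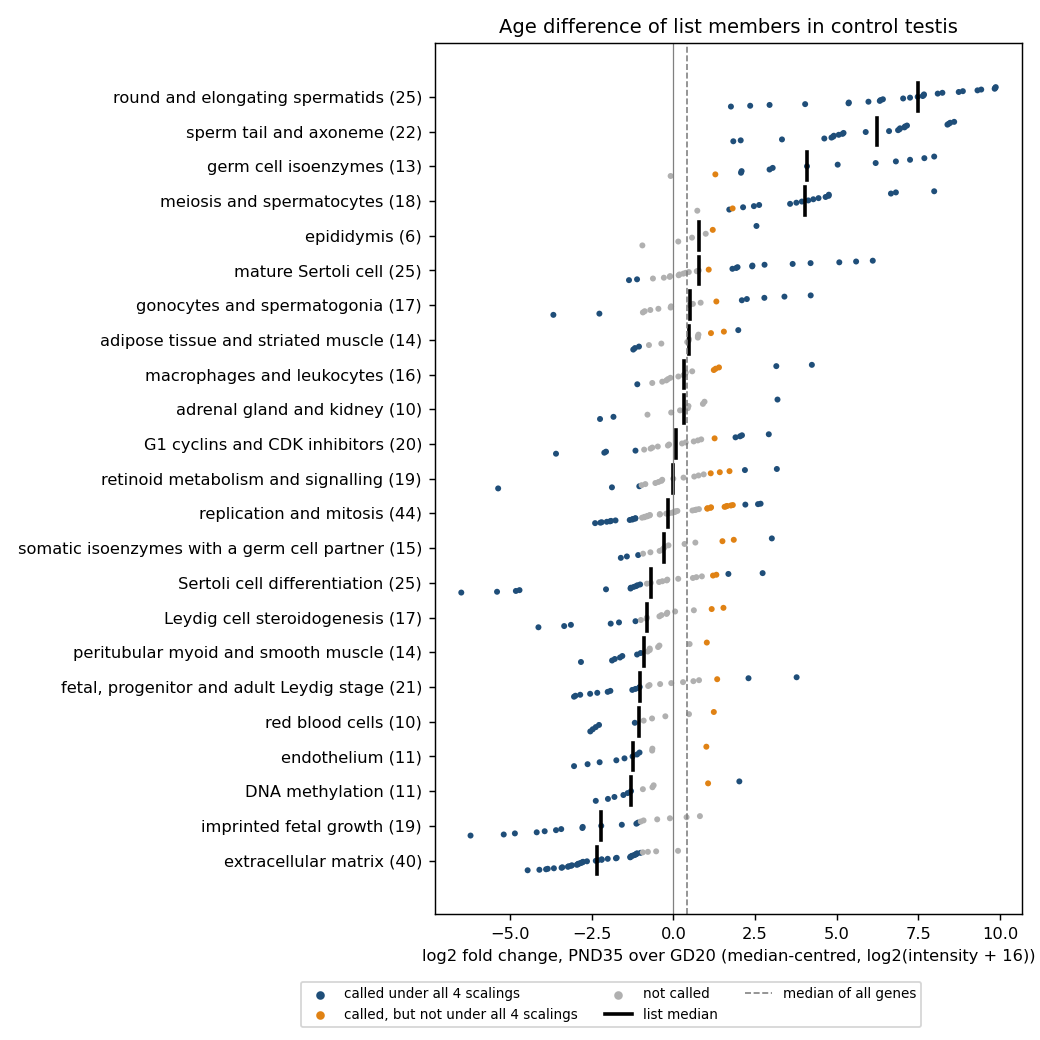
Each dot is the log2 fold change, PND35 over GD20, of 1 gene, in rows by gene list with the number measured in brackets, and black ticks are list medians. Blue dots hold under all 4 scalings, orange dots do not, and grey dots are not called. The spermatid median is 7.48 and the extracellular matrix median -2.35, against 0.41 for all genes (dashed).

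Markers of other cells that a testis sample can hold were read beside these lists. With median centring their counts stand beside 30.8% of all genes called higher and 14.6% lower. Of 16 macrophage and leukocyte genes 5 were higher and 1 fell (2 and 1 under all 4 scalings), and their summed intensity was 5505 to 5750 at GD20 and 6540 to 8080 at PND35. Without Aif1 the deposited intensities of the other 15 summed to 5310 to 5508 at GD20 and 4297 to 4999 at PND35. The direction of this list depended on the scaling: its median log2 difference over all 16 genes was 0.33 with median centring and -0.32 as deposited. Aif1 (4.24), which germ cells of the testis also make, and Adgre1 (3.15), the F4/80 antigen, rose, and the immune adaptor Tyrobp fell by 1.11, a call lost with the extraction method or the RNA integrity number in the model. Of 10 red blood cell genes 5 fell and 1 was higher (5 and 0, 7 lower as deposited), and the embryonic globins Hbz and Hbe1 fell by 2.55 and 2.47. The red cell sum was 30844 to 35422 at GD20 and 9958 to 12297 at PND35, so that blood RNA moved with age beside the lists that fell. Its part in the other falls was not tested.

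Of 6 epididymal genes 2 were higher and none fell (1 under all 4 scalings). Cst8, which spermatids also express, rose by 2.54, and Adam7 lay between 1.84 and 44.4 on all 8 arrays. Of 10 adrenal and kidney genes 1 rose and 2 fell. Pnmt and Cyp11b1 of the adrenal gland fell by 2.25 and 1.84 from 150 ± 17.5 and 138 ± 34.3 (the latter call lost with a pseudocount of 64), and Aqp2 rose by 3.19 from 14.2 ± 11.4 to 159 ± 57.6. Of 14 adipose and striated muscle genes 3 were higher and 3 fell (1 and 3). The counts of this paragraph, too, stand beside 30.8% of all genes called higher and 14.6% lower. The sums of the adrenal and kidney list were 586 to 680 and 260 to 465, and those of the adipose and muscle list 875 to 1264 and 737 to 828.

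The genes with the largest differences overall included others than the listed ones. With predicted symbols passed over, the largest rise was that of Arhgap20l1, from 2.31 ± 1.12 to 15568 ± 1567 (log2 fold change 10.38 ± 0.10). Its GD20 value, like those of Tnp2, Smcp and Capza3, lay under the pseudocount of 16, so that the size and rank of such rises depend on that setting. Kctd16 (9.47), Cmtm2a (9.39), RSA-14-44 (9.35) and Chrne (9.33) were also among the 10 largest rises, beside the spermatid genes Tnp2, Smcp, Prm1, Capza3 and Hils1. Among the 10 largest falls were Inhba and Mest, Gpc3 (-6.40), a growth-restraining proteoglycan, the angiotensin receptor Agtr2 (-6.26), the protocadherin Pcdh18 (-5.92), the carboxypeptidase Cpa1 (-5.88) and the secreted BMP antagonist Sostdc1 (-5.39). Altogether 141 genes had a mean intensity under 50 at GD20 and over 1000 at PND35, and 25 genes had the reverse.

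The age difference was then read in the 8 arrays of fetally DBP-exposed animals, which share no sample with the controls. Among their GD20 arrays that of dam 21 stood apart in spermatid transcripts: Prm1 was 27.5, 31.5, 116 and 1469 in dams 16, 18, 19 and 21, Ldhc 231, 123, 249 and 1305, and Odf1 55.2, 58.3, 86.7 and 825. In these arrays 3956 genes (27.8%) were higher and 2214 (15.6%) lower at PND35, and 22.3% and 14.2% of probe sets. Of these, 3671 rises were shared, which is 83.8% of the control rises and 92.8% of those after fetal DBP, and 1840 falls, which is 88.8% and 83.1%. No gene was called in opposite directions. In this set too extraction ran with age, with the micro clean-up kit at GD20 and the column kit at PND35. Median intensity was 164 to 171 at GD20 and 101 to 108 at PND35. Age and extraction therefore cannot be told apart by the shared calls.

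Of the 422 genes on the lists 271 were called in controls, 139 higher and 132 lower, and 238 of them under all 4 scalings. After fetal DBP 249 of the 271 were called in the same direction (248 without dam 21), 22 were not called and none was called opposite. All 25 spermatid, 22 tail and 17 meiotic genes were called higher there as well. The spermatid median was 6.43 after fetal DBP, 6.88 without dam 21, and Prm1 differed by 8.31, or 9.43 without dam 21. The falls were of similar size: Amh differed by -4.83 after fetal DBP, Inhba by -6.52, Mest by -6.27 and Cyp11a1 by -3.42. Rhox5 stood at -1.36 in controls and -0.09 after fetal DBP, and the interaction described next did not call it (adjusted p = 0.178).

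A test of the difference itself, the interaction of age and fetal DBP over 16 arrays, called 51 genes (0.359%; 0.29% of probe sets), 3 of which are on the lists. Ccnd2 had 7726 ± 293 in control and 4350 ± 1110 in DBP-exposed testes at GD20 (SD, n = 4 each). At PND35 it had 1177 ± 233 in controls and 1421 ± 172 after fetal DBP. It fell by 2.06 in controls and differed by -0.97 after fetal DBP, an interaction of 1.09 ± 0.22 (adjusted p = 0.0392). Leaving out 1 array at a time gave adjusted p from 0.016 to 0.0978, and the call was lost without control dam 2, 3, 4 or 5, control pup 104 or 110, or pup 123, 132 or 134 of the fetal DBP group. Cdkn1b and Fdx1, the electron donor of Cyp11a1, had interactions of -0.59 and -0.54, and both calls were also lost without control dam 2, 3, 4 or 5 or control pup 104, and without some of the other arrays.

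**Figure D5:**
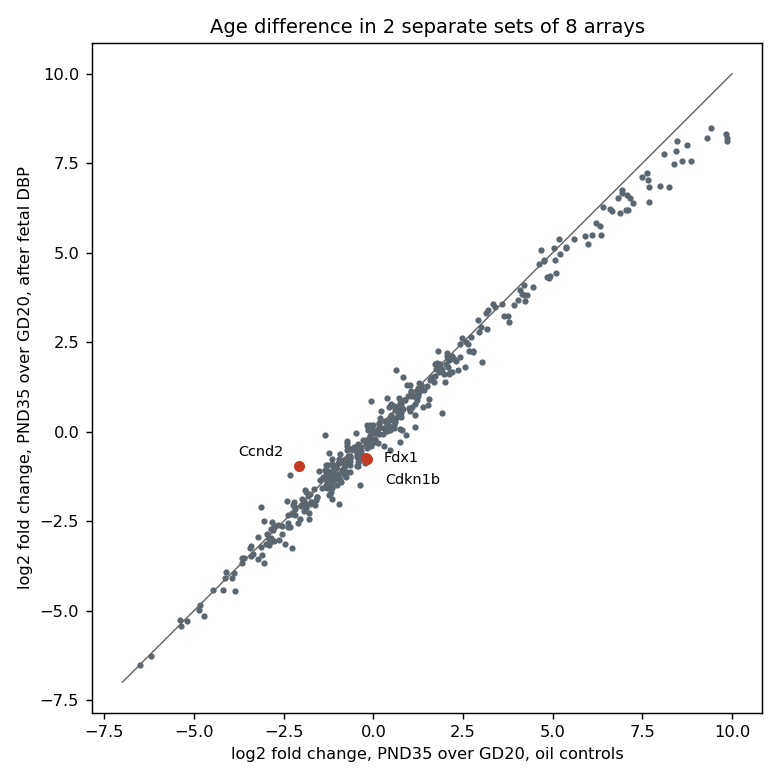
Each point is a gene of the lists, placed by its log2 fold change from GD20 to PND35 in oil controls (x axis) and after fetal DBP (y axis), with the line of equality. Red points are the 3 genes with an interaction. The points follow the line, and at the top, where spermatid genes lie, they run below it (medians 7.48 and 6.43).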

How the data were processed

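RNA of 8 control rat testes, 4 per age, and of 8 fetally DBP-exposed ones was measured on 1 array each. The authors deposited a linear intensity for each probe set, and the submitters' processing notes name GCOS 1.0, with the summarization algorithm not given in the sources used here. The table holds 31099 probe sets. The 57 manufacturer's controls were left out and 31042 were tested by lmFit and eBayes (with a trend on intensity) of limma 3.58.1, under R 4.3.3, on log2 of the intensity plus a pseudocount of 16, each array centred on its median, two-sided, with Benjamini-Hochberg adjustment over all 31042. Platform annotation, which can be old, gives 1 gene symbol to 20826 probe sets, several to 436 and none to 9780, and 20758 matched the gene table by gene number. The brightest probe set over the 8 arrays stands for a gene. The pseudocount understates changes of dim genes, and 12.1% to 18.3% of an array's intensities lay under 16. The number of arrays limits the precision.

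The arrays and the 23 gene lists (552 entries, 432 measured) were chosen with earlier results of these data known, and the lists partly overlap. Named are the 10 largest rises and falls among non-overlapping genes called at 4-fold (predicted symbols passed over), up to 3 rises and 3 falls per list, and a short set whatever its values, of which 10 were not represented by a probe set of 1 symbol and are not analysed here. Other members named were chosen after their values were seen. Calls under all 4 scalings, the single-array removals in the fetal DBP contrast and the pancreatic gene list were added after the data were seen. Strings for the full X box and for NRF1 were also searched and are not reported. No label says that the pups came from separate litters, so p-values measure the spread between these samples. The script was tested on simulated data.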

Additional observations from a re-analysis of the deposited data

Results flagged for a closer look

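In 318 groups of 4 arrays tested for an array outside the range of the others by Dixon's ratio (gap over range, at its 95% critical value), 12 were outlying. This is fewer than the 5% that chance gives, so the arrays below are listed without being read as a result. The intensities named for Myh8, Hsd17b3, Pgam2 and Cdkn2b lay under the pseudocount of 16. The ratios are of the median-centred log2 values, whereas the intensities printed beside them are as deposited and can give other ratios. At PND35 pup 104 was lowest for Ccna2 (ratio 0.910, intensity 170) and Myh8 (0.856, 8.34), and pup 110 highest for Hspa2 (0.855, 17506). Pup 114 was lowest for Flna (0.882, 552) and Hsd17b3 (0.855, 3.86). Pup 120 was highest for Dmrt1 (0.833, 743) and lowest for Prm1 (0.856, 30081). At GD20 the pooled array of dam 2 was lowest for Cdt1 (0.898, 1350) and Col14a1 (0.856, 1324). Dam 3 was highest for Cfd (0.885, 76.8) and Pgam2 (0.967, 9.58), and dam 4 lowest for Cdkn2b (0.872, 6.37).

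The age difference of Ccnd2, the D-type cyclin of dividing Sertoli cells, differed between fetal exposures by 1.094 on the log2 scale (limma interaction, adjusted p = 0.0392), being smaller after fetal DBP. Mean intensities of the exposures lay further apart at GD20 (7726 in controls and 4350 after DBP) than at PND35 (1177 and 1421). The call was lost under several of the single-array removals given above.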

How the results depend on the processing

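The counts moved with the scaling and other settings. At 2-fold, 7608 probe sets were higher and 4530 lower with median centring. Higher counts were 3595 as deposited, 4975 after quantile normalization, 4960 with the 75th percentile, 4903 with a pseudocount of 64, 4523 with limma's treat and 3449 under all 4 scalings. Lower counts were 8820 as deposited and 2493 with treat. At 4-fold, against 2659 higher and 1351 lower, the higher counts were 1548 as deposited and 1514 under all 4 scalings, and the lower ones 3017 as deposited, 2066 with the 75th percentile, 2342 with a pseudocount of 1 and 747 with one of 64. After fetal DBP, 6921 higher and 4397 lower became 3561 and 8281 as deposited. The 90 interaction probe sets ranged from 20 to 267 when 1 array was left out.

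The filter on dim probe sets, eBayes without trend, the 24-array fits with and without the spike-in level, and extraction or RNA integrity as a covariate kept those 4 counts within 1.5 times, as did leaving out each array. Of 128 called genes named by the rule, 93 kept their call under every setting, 35 lost it under at least 1, and none reversed. Treat alone ended the calls of Inhbb and Vdac1, which lay near 2-fold. No paired analysis was possible because dam and pup numbers are shared by no groups. The cause of these shifts was not tested.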

Other observations

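Among the largest falls were genes of pancreatic digestive enzymes. Cpa1, a carboxypeptidase, had 9675, 9091, 9493 and 10013 in the GD20 testes and 52.9, 91.3, 122 and 95.1 at PND35, a fall of 5.88 ± 0.16 (SE) on the log2 scale. Ctrb1, a chymotrypsinogen, had 2960, 2681, 3005 and 2804 against 30.9, 33.4, 14.8 and 31.9, a fall of 5.41 ± 0.15. After fetal DBP the same genes differed by -5.85 and -5.51. Of 16 other pancreatic genes, listed after these values were seen, the highest intensity on any of the 8 arrays was 305 and the highest group mean 230. Of these, 6 were called higher and 1 lower at PND35 (1 and 1 under all 4 scalings). Among all genes 30.8% were called higher and 14.6% lower (16.2% and 14.6% under all 4 scalings). Levels of different genes are not compared by these intensities.

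The 4 PND35 testes were not alike in germ cell and Sertoli cell transcripts. Pup 120 had the lowest summed intensity of spermatid genes (185019) and pup 110 the highest (245904), and Prm1, Tnp1, Ldhc and Odf1 were each lowest in pup 120. Clu, Shbg and Cst12 of Sertoli cells were each lowest in pup 110.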
